A study of Mus musculus with 47 samples.

Results

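Vsig4, Clec4f, Cd209f, Marco, Cd5l, Timd4, Cd163, Fcna, Mrc1 and Adgre1 encode proteins of Kupffer cells and other resident macrophages, and their transcripts were followed here in the liver, lung and brain of Daxx mutant mouse embryos. They are 10 of the 20456 genes counted, and they were taken by symbol. They had been selected on the S226A liver, where most of them are low, and Marco also on the S226A brain. Values of those comparisons are therefore given as a description, without a test.

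Kupffer cells are the macrophages that line the sinusoids of the liver. They clear opsonised particles, apoptotic cells and free haemoglobin from blood with surface receptors, and they arise in the embryo from precursors that seed the liver before birth. The fetal liver is also the site of blood formation at this stage. Vsig4 binds complement C3 fragments, Clec4f and Cd209f are C-type lectins, Marco is a scavenger receptor of class A, Timd4 binds phosphatidylserine on dying cells, Cd163 takes up haemoglobin bound to haptoglobin, Mrc1 is the macrophage mannose receptor, and Adgre1 encodes the F4/80 antigen. Cd5l and Fcna are not receptors. They are secreted proteins, an inhibitor of apoptosis of macrophages and a ficolin that starts the lectin pathway of complement.

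Whole liver, lung and brain at E18.5 came from embryos homozygous for 1 of 2 germline knock-in alleles. Daxx S226A/S226A embryos carry a Daxx that no longer binds the histone variant H3.3. Daxx Y130A/Y130A embryos carry a Daxx whose binding to Atrx is disrupted, though perhaps not wholly lost. Both alleles were made by CRISPR/Cas9 in C57BL/6N zygotes and crossed to C57BL/6J, heterozygous parents were mated, and each mutant embryo was compared with wild-type embryos of its own litters. The mutation is in all cells of the embryo, so that no comparison is limited to macrophages. There were 47 libraries in 12 groups, 4 in each group except that wild-type lung of the Y130A litters had 3. The paper states that 1 wild-type lung was removed as an outlier, judged by principal components and a heatmap of expression. The wild-type embryos of the S226A litters and of the Y130A litters are separate groups throughout. Mutant and wild-type liver, lung and brain came from 17 embryos of 8 litters, since 1 litter gave a wild-type lung from a further embryo.

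The S226A set held 15722147 to 26190403 reads per library and the Y130A set 36351738 to 54885020. Markers of each tissue were in place, as the summed level of Alb, Apoa1, Afp and Ttr was at least 139291 CPM (reads relative to the size of the library) in each liver, and that of Sftpc, Sftpb, Scgb1a1 and Ager was at least 6287 CPM in each lung. Tubb3, Stmn2, Neurod6 and Dcx summed to at least 3459 CPM in each brain. Daxx itself, whose alleles differ by point mutations, had log2 fold changes of -0.12 ± 0.09 (SE) to 0.04 ± 0.09 in the 6 comparisons with littermates, with adjusted p of 0.857 or more. These are values of RNA. For Daxx protein the paper reported a higher level in Y130A and a lower level in S226A, in embryonic fibroblasts and E18.5 lung, most clearly in the fibroblasts. The part of the protein level in the results below was not tested. In 2 livers, wild-type replicate 2 of the S226A litters and Y130A replicate 1, 8 markers of squamous epithelium summed to 1091 and 740 CPM, against 10.2 CPM or less in the other livers. In bulk tissue, fewer cells of a type and less RNA per cell cannot be told apart, which holds for each result below.

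RefSeq (GRCm38.p6) gives a start site for 9 of the 10 genes. The sequence before the start is shown for 5 of them whose levels the results turn on: Vsig4 and Clec4f, which were nearly lost from S226A liver, Cd163, which was low in S226A liver, lung and brain, Fcna, which was low in S226A liver and high in lung and brain, and Marco, which had the smallest difference in S226A liver. Each is written 5′ to 3′ on the strand of its gene and ends at the annotated start of the gene, or at the RefSeq start 5 bases before it for Cd163. Capitals mark GAGGAA, a core of sites for the macrophage factor PU.1, and TGCTGA, part of sites for MAF factors, with matches on either strand.
Vsig4, chrX:96293439-96293688, minus strand: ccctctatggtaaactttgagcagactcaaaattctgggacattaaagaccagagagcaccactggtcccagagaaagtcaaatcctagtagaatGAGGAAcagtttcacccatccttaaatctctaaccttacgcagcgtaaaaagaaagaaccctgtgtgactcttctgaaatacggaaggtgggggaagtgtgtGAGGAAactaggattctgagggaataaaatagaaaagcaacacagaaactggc
Clec4f, chr6:83656188-83656366, minus strand: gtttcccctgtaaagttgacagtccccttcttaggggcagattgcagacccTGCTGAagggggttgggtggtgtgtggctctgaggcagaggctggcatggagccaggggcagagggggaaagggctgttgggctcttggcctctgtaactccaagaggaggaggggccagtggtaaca
Cd163, chr6:124304401-124304650, plus strand: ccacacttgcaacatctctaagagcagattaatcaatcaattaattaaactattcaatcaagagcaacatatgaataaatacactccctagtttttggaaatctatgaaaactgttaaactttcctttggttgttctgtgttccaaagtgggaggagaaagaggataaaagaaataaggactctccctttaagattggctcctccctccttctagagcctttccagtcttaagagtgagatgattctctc
Fcna, chr2:25628031-25628224, minus strand: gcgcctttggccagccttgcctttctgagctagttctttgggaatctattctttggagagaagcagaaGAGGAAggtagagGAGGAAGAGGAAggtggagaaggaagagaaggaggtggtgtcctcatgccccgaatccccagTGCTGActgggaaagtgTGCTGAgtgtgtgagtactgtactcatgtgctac
Marco, chr1:120505025-120505274, minus strand: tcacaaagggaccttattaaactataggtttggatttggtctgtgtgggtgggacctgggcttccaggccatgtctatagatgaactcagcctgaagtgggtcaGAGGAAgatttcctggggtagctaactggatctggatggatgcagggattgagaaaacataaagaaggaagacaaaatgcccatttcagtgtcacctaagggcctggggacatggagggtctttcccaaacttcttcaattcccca
In the 250 bases before the RefSeq start, GAGGAA or its reverse complement was found in 5 of the 9 genes (Vsig4, Marco, Cd5l, Fcna and Mrc1), and TGCTGA or its reverse complement in 4 (Clec4f, Cd5l, Timd4 and Fcna). The shares over all 32851 windows of this length were 23.3% and 16.1%. Fcna held 3 and 2 matches, Vsig4 held 2 of GAGGAA, and Cd163 held none of either. The 2 motifs share no bases in these windows, and a match is not a bound site.

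The first question was where the genes are expressed without mutation. In the wild-type embryos of the Y130A litters, all 10 were higher in liver than in lung and than in brain. In that comparison a gene was called when its adjusted p was below 0.01, its log2 fold change beyond 1 and its standard error below 1, and 10 of 10 met these criteria against lung, where 18% of all 16892 genes tested were called higher in liver, and 10 of 10 against brain, where 25.7% were. The libraries of liver did not overlap with those of lung or brain for any of the 10 (exact permutation test on log2(CPM + 1), two-sided, p = 0.0286, the smallest that 4 against 4 or 4 against 3 libraries can give). These counts are partly set by the choice of genes, since a gene picked for being low in S226A liver has to be expressed in liver, and Vsig4, Clec4f and Cd209f, with few reads elsewhere, passed the filter on low counts through liver. Nothing is read from them against the shares of all genes. Cd209f rested on 1 read in lung, and its call against lung was lost in 4 of 7 fits without 1 library, each of the 3 lungs among them.

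The 10 genes differed in how far they were confined to liver. Clec4f had 84.2 to 143 CPM in the 4 wild-type livers of the Y130A litters and 3 reads or fewer in each wild-type lung, a ratio of 4490 (95% interval 1753 to 16480, counting error only). Cd5l was 767-fold higher in liver than in lung on mean CPM, and Vsig4 163-fold. The value of Vsig4 depended on 1 lung, since 15 of its 17 reads in wild-type lung were in replicate 2, and its log2 fold change was 6.74 to 9.58 when 1 library was left out. Marco, Timd4 and Fcna were 38.3-fold, 38.3-fold and 41.8-fold higher. Adgre1, Mrc1 and Cd163 were the most widely expressed, with liver 6.92-fold, 3.09-fold and 2.44-fold above lung and 14.5-fold, 5.62-fold and 2.80-fold above brain. Marco was rare in brain, with 3 reads or fewer in each wild-type brain of these litters, against 2574 to 5080 reads in the livers.

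Levels of different genes can be compared per kilobase of exon. Over the 8 wild-type livers of both litter sets, Cd5l was highest at 85.1 ± 14.4 CPM per kb (SD, n = 8), followed by Fcna (71.1 ± 12.2), Marco (55.9 ± 10.1) and Clec4f (51.3 ± 9.99). Mrc1 (30.9 ± 3.87 CPM per kb) and Adgre1 (28.1 ± 3.65) came next, then Vsig4 (11.7 ± 1.89) and Timd4 (8.82 ± 1.48). Cd209f (2.29 ± 0.908 CPM per kb) and Cd163 (2.12 ± 0.254) were lowest. The order had gaps only between Adgre1 and Vsig4 and between Timd4 and Cd209f, and for every other pair of neighbours the ranges of the livers overlapped. In lung and brain the order was another one, led by Mrc1 at 11.7 ± 1.88 (n = 7 lungs) and 6.09 ± 0.355 CPM per kb (n = 8 brains), then Adgre1 and Fcna.

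**Figure D1:**
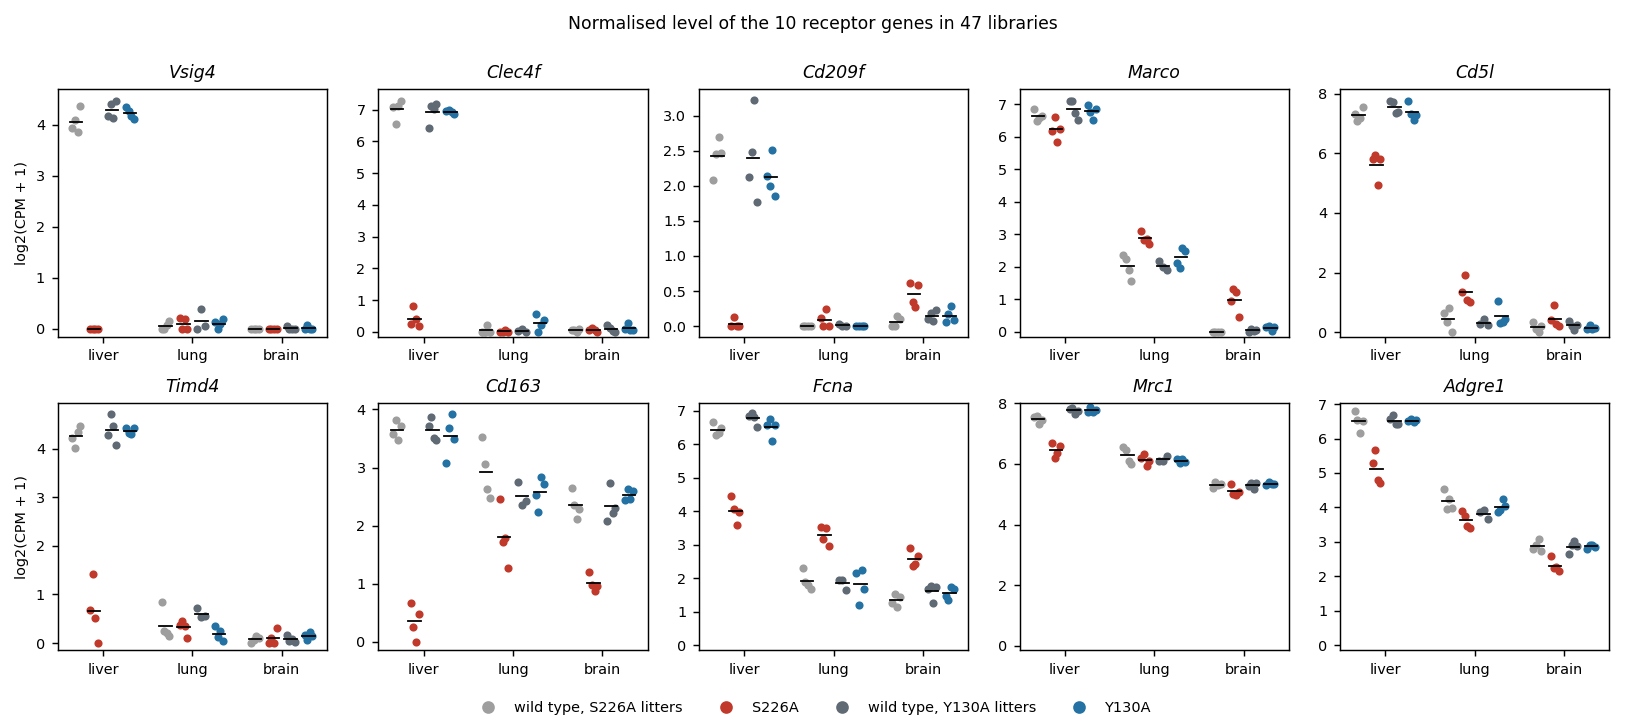
Each panel plots 1 gene, with log2(CPM + 1) on the vertical axis and liver, lung and brain on the horizontal axis, where a point is 1 library and a bar the mean of its group. In liver, the 4 S226A libraries lie below all wild-type and Y130A libraries for 9 genes and overlap with them for Marco, while in lung and brain Fcna lies above and Cd163 below the wild-type littermates in S226A.

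In S226A liver, 9 of the 10 genes were lower than in the wild-type littermates by more than 2-fold, and what was left ranged from no read at all to 76.3% of the wild-type mean. This is the contrast the genes were chosen by, so the counts carry no test. For reference, 2.1% of all genes met the 3 criteria there (0.847% lower), and the 4 mutant libraries lay outside the 4 wild-type libraries for 9 of the 10 genes and for 11.9% of all genes. The median log2 fold change was -3.56 for the 10 genes and -0.01 for all genes.

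The complement receptor Vsig4 (ENSMUSG00000044206.3, chromosome X, 96247203 to 96293438) had 14.3, 16.2, 13.5 and 19.7 CPM in the 4 wild-type livers, 188 to 321 reads each. None of the 4 S226A livers had a single read. With a floor of 3 reads per library, Vsig4 was at least 80.0-fold lower.

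The C-type lectins followed. Clec4f (ENSMUSG00000014542.3, chromosome 6, 83644542 to 83656187) had 134, 93.6, 138 and 155 CPM in wild-type livers and 0.198, 0.739, 0.309 and 0.133 CPM in S226A livers, which is 0.265% of the wild-type mean. Cd209f (ENSMUSG00000051906.15, chromosome 8, 4102787 to 4105835) had 53 to 76 reads in each wild-type liver and 2 reads in the 4 S226A livers together, both in replicate 2, a ratio of 149 (95% interval 41.0 to 1240, counting error only). Clec4f was the most abundant of the genes that were nearly lost. Of 10 other C-type lectins tested, Cd209b, Clec4a1 and Clec10a among them, 0 met the criteria in S226A liver, and their median log2 fold change was -0.20. The lectins closest to Cd209f were at the floor of detection, as Cd209a, Cd209b, Cd209c, Cd209d and Cd209g had no read in the 4 S226A livers, while of these only Cd209d had none in the wild-type livers, so that the missing call of Cd209b does not show that it was kept.

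Timd4 (ENSMUSG00000055546.6, chromosome 11, 46810800 to 46844332) had 17.6, 15.2, 19.3 and 21.0 CPM in wild-type livers and 0.593, 1.66, 0.433 and 0 CPM in S226A livers. Cd163 (ENSMUSG00000008845.9, chromosome 6, 124304656 to 124330527) had 10.9, 13.1, 10.1 and 12.1 CPM and 0.593, 0.185, 0 and 0.398 CPM. In S226A liver, Timd4 was thus at 3.68% and Cd163 at 2.54% of the wild-type mean. S226A replicate 2 was the highest of the 4 mutant livers for Clec4f, Cd209f, Marco, Cd5l, Timd4 and Adgre1 but the lowest for Mrc1, and replicate 4 the lowest for Clec4f, Timd4 and Adgre1.

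The remaining genes were lower but well detected. Fcna (ENSMUSG00000026938.10, chromosome 2, 25624666 to 25628030) had 99.9, 76.4, 79.0 and 88.7 CPM in wild-type livers and 20.7, 15.8, 11.1 and 14.8 CPM in S226A livers, 18.1% of the wild-type mean. Cd5l (ENSMUSG00000015854.7, chromosome 3, 87357881 to 87371073) had 160, 136, 145 and 188 CPM against 55.3, 61.0, 29.3 and 54.7 CPM. Both secreted proteins thus kept a part of their transcript in each mutant liver.

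Adgre1 (ENSMUSG00000004730.15, chromosome 17, 57358691 to 57483527) had 71.1 to 110 CPM in wild-type livers and 25.1 to 49.7 CPM in S226A livers, and Mrc1 (ENSMUSG00000026712.3, chromosome 2, 14229392 to 14332057) had 158 to 190 and 72.7 to 102 CPM. Their mutant means were 38.6% and 49.5% of wild type, without overlap. Marco (ENSMUSG00000026390.7, chromosome 1, 120474538 to 120505024) stood apart from the other 9. It had 113, 87.7, 94 and 98.8 CPM in wild-type livers and 72.0, 97.1, 56.3 and 75 CPM in S226A livers, with overlapping groups and a log2 fold change of -0.39 ± 0.19 (SE).

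The level left can be set beside the fold between wild-type liver and lung. Clec4f, Cd209f and Vsig4, among the 4 genes with the highest folds, had the least left, and Adgre1 and Mrc1, with low folds, kept 38.6% and 49.5%. Cd5l, second only to Clec4f in this fold on mean CPM, was left at 31.9%, whereas Cd163, with the lowest fold, was left at 2.54%. Within litters the values were 20.3% to 44.7% for Cd5l and 0% to 5.45% for Cd163, over 4 litters. Marco was lower in the mutant in 3 of 4 litters, at 59.9% to 111% of the wild-type littermate.

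**Figure D2:**
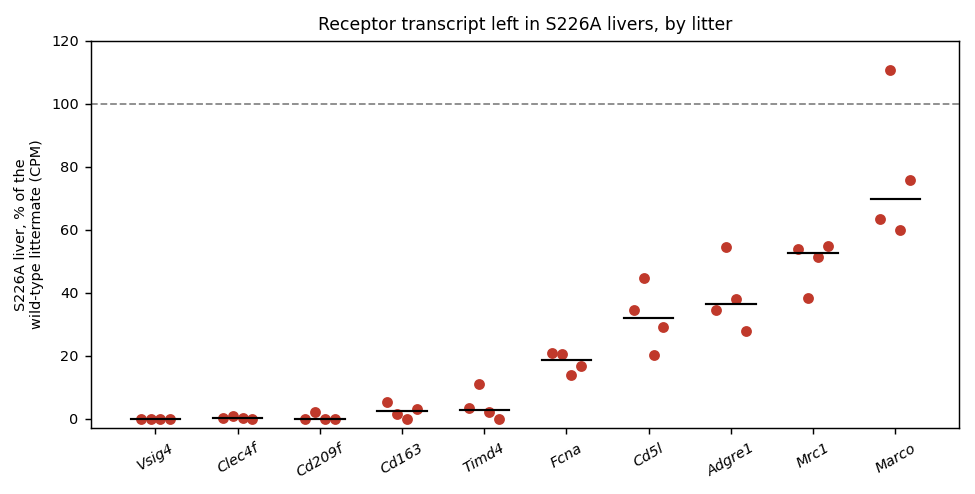
The level of each gene in an S226A liver is plotted as a percentage of the wild-type littermate, with 1 point per litter (n = 4) and a bar at the median, and the genes are ordered by their group means. Vsig4 is at 0 in all litters, Clec4f, Cd209f, Cd163 and Timd4 lie at 11.0% or less, Fcna at 14.0% to 20.8%, and Marco at 59.9% to 111%, with 1 of its 4 points above the dashed line at 100%.

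Other genes known from macrophages were examined in S226A liver. Of 13 genes that macrophages share, 9 met the criteria and all 9 were lower. They included the complement components C1qa, C1qb and C1qc, at log2 fold changes of -3.26, -2.18 and -2.79, and Csf1r, the receptor for the macrophage growth factor, at -1.61 ± 0.07 (SE). Of 11 further genes known from Kupffer cells, only Folr2 (-5.14 ± 0.52) and C6 (-3.05 ± 0.32) met the criteria, and these 2 were named after their values were seen. All 11 had log2 fold changes below 0, with a median of -0.59, and their summed level was 654 to 756 CPM in mutant and 955 to 993 CPM in wild-type livers, without overlap. The smallest difference was that of Nr1h3, a nuclear receptor of Kupffer cells that other liver cells also express, which was at 36.1 ± 2.05 CPM in mutant and 36.8 ± 2.80 CPM in wild-type livers (SD, n = 4). Lyve1 came next, with a log2 fold change of -0.05 ± 0.14 (SE).

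Markers of other blood cells moved at the same time. Of 9 neutrophil markers, 7 met the criteria in S226A liver and were higher, and the summed level of the 9 was 7633 to 8372 CPM in mutant and 2662 to 3295 CPM in wild-type livers. The monocyte markers Ly6c2 and F13a1 were also higher, with log2 fold changes of 1.46 ± 0.21 and 1.25 ± 0.12 (SE). None of 9 markers of sinusoidal endothelium met the criteria, but their sum was also lower, 531 to 741 CPM against 831 to 924 CPM. Their part in the levels above, which are shares of all reads, was not tested. Without wild-type replicate 2, the liver with squamous transcripts, 8 of the 10 genes met the criteria, because the log2 fold change of Mrc1 came to lie just inside the limit of 1.

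The Y130A allele was examined to ask whether disrupted Atrx binding affects the same genes. In Y130A liver, 0 of the 10 genes were called, against 0.077% of all genes, and 0 of them had an unadjusted p below 0.05 with edgeR or a call with DESeq2. None of the 10 had libraries without overlap, against 2.35% of all genes. Vsig4 had 16.4 to 19.5 CPM in Y130A livers and 16.6 to 21.3 CPM in wild-type livers, and Clec4f 116 to 126 and 84.2 to 143 CPM. The log2 fold changes ran from -0.44 ± 0.52 (SE, Cd209f) to 0.01 ± 0.10 (Mrc1), and the lowest adjusted p was 0.812, for Fcna at -0.27 ± 0.20. Since the S226A effect in liver was used to choose the genes, the difference between the 2 alleles in liver was not tested.

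Lung and brain of S226A embryos are not known to have served in choosing the genes, apart from Marco in brain. Earlier results of these data were known at the choice, however, so that the counts below may not be fully independent of it. In these tissues the 10 genes did not move together. In S226A lung, Fcna rose and Cd163 fell. That is 2 of 10 genes called, against 0.302% of all genes. At an adjusted p below 0.05 without the other criteria it was 5 of 10 against 1.88%, adding Marco and Cd5l with higher and Adgre1 with lower levels. Cd5l and Adgre1 lay just under this limit, and their adjusted p reached 0.232 and 0.161 without 1 library and 0.712 and 0.538 over 13 alternatives. The same 5 genes were those without overlap between mutant and wild-type libraries, 3 higher and 2 lower, against 3.81% of all genes.

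Fcna in lung had 3.99, 2.74, 2.50 and 2.19 CPM in wild type and 10.7, 8.06, 10.4 and 6.82 CPM in S226A. All 4 mutant lungs lay above all 4 wild-type lungs. The mean was 3.15-fold higher, the log2 fold change was 1.65 ± 0.24 (SE) and the adjusted p was 2.47e-05 (exact permutation p = 0.0286, higher in 4 of 4 litters).

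Cd163, the haemoglobin scavenger receptor, had 10.46, 7.37, 5.16 and 4.55 CPM in wild-type lungs and 4.49, 2.28, 2.47 and 1.40 CPM in S226A lungs. The groups came close but did not overlap, and the mutant lung was at 30.9% to 47.8% of its wild-type littermate in 4 of 4 litters. The log2 fold change was -1.37 ± 0.30 (SE) with an adjusted p of 0.00681 (exact permutation p = 0.0286). The call was lost without wild-type replicate 1 and without S226A replicate 2, 3 or 4, with adjusted p up to 0.0514, and in a fit of only these 8 lungs the adjusted p was 0.397 for Cd163 and 0.0194 for Fcna.

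Marco in lung had 4.13, 3.73, 2.70 and 1.92 CPM in wild type and 7.55, 6.06, 6.24 and 5.49 CPM in S226A, a log2 fold change of 1.01 ± 0.24 (SE) with an adjusted p of 0.0165. It met the criteria with litter as a block, at an adjusted p of 0.00703, and over 13 alternatives the adjusted p was 0.000837 to 0.365. Cd5l was sparse, with 0 to 15 reads per wild-type lung and 24 to 59 reads per S226A lung (1.96 ± 0.53, adjusted p = 0.0412). Adgre1 had 14.7 to 22.1 CPM in wild-type and 9.67 to 14.0 CPM in S226A lungs (-0.58 ± 0.16, adjusted p = 0.0464). Mrc1, the most abundant of the 10 in lung, was at 78.1 ± 15.4 CPM in wild-type and 69.7 ± 8.12 CPM in S226A lungs (SD, n = 4) and did not pass the test (adjusted p = 0.426). Vsig4, Clec4f, Cd209f and Timd4 had 17 reads or fewer in each of these 8 lungs and were not called, and at such counts a fall would not have been detectable.

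Genes around them moved in either direction in S226A lung. Of the 13 genes common to macrophages, Csf1r (-1.13 ± 0.07), the fractalkine receptor Cx3cr1 (-1.25 ± 0.19) and Mpeg1 (-1.10 ± 0.14), a pore-forming protein of macrophages, fell. Of 7 markers of alveolar macrophages, Ear2 fell (-1.50 ± 0.30) and the others were not called, with a sum of 50.2 to 81.4 CPM in mutant and 44.0 to 82.8 CPM in wild-type lungs. Of the 11 further Kupffer genes, 0 met the 3 criteria. Hmox1, the enzyme that degrades haem, was at 30.1 ± 1.61 CPM in S226A and 17.0 ± 1.62 CPM in wild-type lungs (SD, n = 4), with a log2 fold change of 0.82 ± 0.11 and an adjusted p of 1.01e-05, and Slc40a1, the iron exporter ferroportin, had a log2 fold change of 0.57 ± 0.12 (adjusted p = 0.00519). These 2 genes were named after their values were seen.

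Markers of other cells moved with these changes. Neutrophil markers S100a8, S100a9, Mmp8 and Retnlg rose in S226A lung, by 1.65 to 1.91 on the log2 scale, and the 9 markers summed to 149 to 198 CPM in mutant and 37.6 to 81.4 CPM in wild-type lungs. The monocyte marker Ccr2 fell, by 1.39 ± 0.23 on the log2 scale. Itgam, a chain of complement receptor 3 that neutrophils and monocytes carry, rose by 1.52 ± 0.25. Their part in the rise of Fcna was not tested. Liver transcripts overlapped between the groups, as Alb, Apoa1, Afp and Ttr summed to 8.87 to 239 CPM in S226A and 9.42 to 424 CPM in wild-type lungs. Clec4f had 1 read in the 4 S226A lungs. It cannot gauge liver transcripts there, because S226A livers themselves had only 0.345 CPM of it on average.

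In S226A brain, Fcna rose and Cd163 fell as well. Leaving aside Marco, which was chosen by this comparison, these were 2 of 9 genes called, against 0.124% of all genes. Libraries did not overlap for 4 of the 9, against 2.48% of all genes, with Cd209f and Fcna higher and Cd163 and Adgre1 lower. Fcna had 1.39, 1.91, 1.23 and 1.70 CPM in wild-type and 6.47, 4.18, 4.35 and 5.37 CPM in S226A brains. The mean was 3.27-fold higher, with a log2 fold change of 1.71 ± 0.26 (SE) and an adjusted p of 8.32e-05 (exact permutation p = 0.0286). Cd163 had 5.25, 4.12, 3.34 and 3.89 CPM in wild-type and 1.29, 0.976, 0.836 and 0.95 CPM in S226A brains.

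The fall of Cd163 in brain was nearly the same in each litter. The mutant brain was at 23.7% to 25.0% of its wild-type littermate in 4 of 4 litters, the log2 fold change was -2.02 ± 0.32 (SE) and the adjusted p was 0.000184 (exact permutation p = 0.0286). Over 13 alternatives, Fcna and Cd163 stayed called in brain in each, with adjusted p of at most 0.00160 and 0.00292.

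Marco, by which the brain comparison had been noticed, is given as a description. It had no read in the 4 wild-type brains of the S226A litters and 26, 38, 32 and 9 reads in the 4 S226A brains, or 0.910, 1.48, 1.34 and 0.372 CPM. With a floor of 3 reads per library, it was at least 8.13-fold higher. Cd209f, also rare in brain, had 0, 0, 3 and 2 reads in wild-type and 15, 7, 5 and 12 reads in S226A brains, a difference that did not pass the adjusted test (2.89 ± 0.78, adjusted p = 0.203, exact permutation p = 0.0286). Adgre1 was at 6.44 ± 0.796 CPM in wild-type and 4.00 ± 0.692 CPM in S226A brains (SD, n = 4) and did not pass either (-0.68 ± 0.18, adjusted p = 0.107).

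Mrc1 was the most abundant of the 10 genes in brain, where macrophages at its borders express it and microglia do so little. It was at 39.0 ± 2.34 CPM in wild-type and 33.5 ± 3.95 CPM in S226A brains (SD, n = 4), with an adjusted p of 1. Of 4 markers of border-associated macrophages 0 were called, with sums of 13.3 to 19.1 CPM in mutant and 9.37 to 13.1 CPM in wild-type brains. Of 6 microglia markers, the purinergic receptor P2ry12 fell (-2.16 ± 0.33), and the 6 summed to 31.7 to 35.2 CPM in mutant and 45.9 to 52.7 CPM in wild-type brains. Of the 13 genes common to macrophages, Csf1r (-1.52 ± 0.08), Cx3cr1 (-2.21 ± 0.20), Mpeg1 (-1.29 ± 0.18) and Tyrobp (-1.01 ± 0.20), an adaptor of activating receptors, fell. Neutrophil markers were rare, with 0 of 9 called and sums of 5.77 to 13.6 CPM in mutant and 1.27 to 4.46 CPM in wild-type brains, and Ly6g had no read in either group. Their part in the results for brain was not tested.

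**Figure D3:**
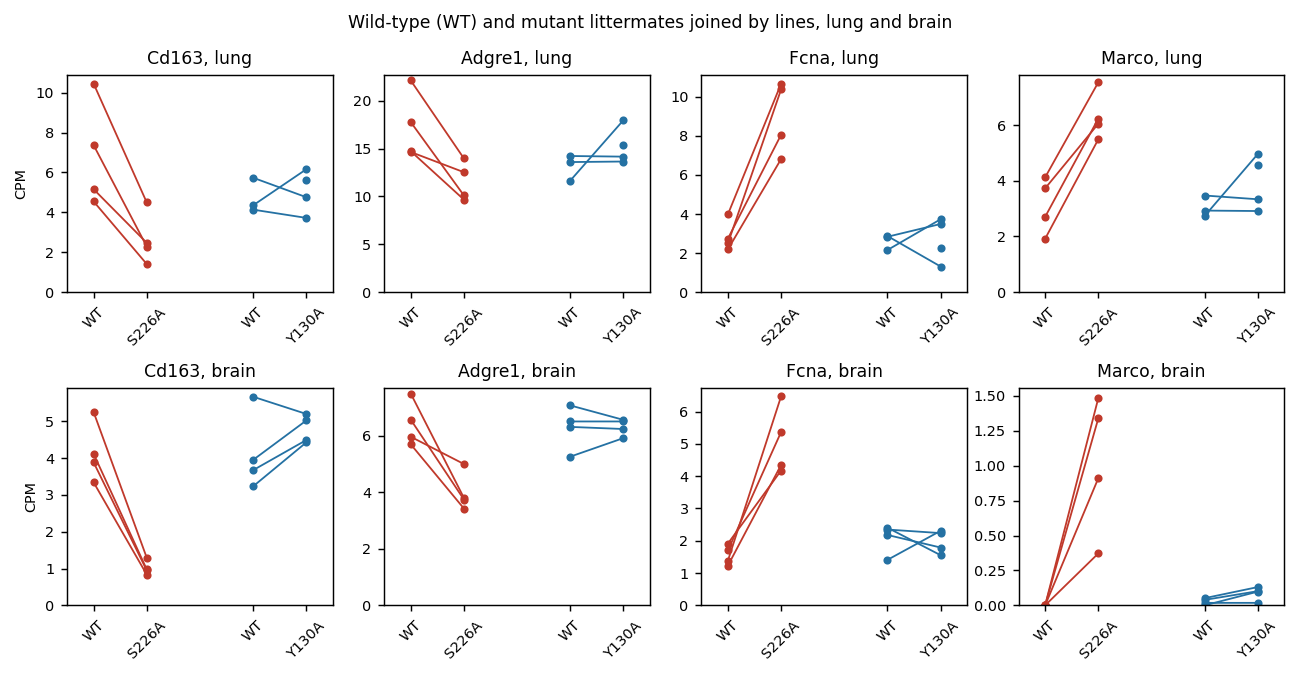
CPM of Cd163, Adgre1, Fcna and Marco in lung (top) and brain (bottom), where each point is 1 library and a line joins a mutant to the wild-type (WT) embryo of its litter, with S226A litters in red and Y130A litters in blue (1 Y130A lung has no wild-type partner). Cd163 and Adgre1 go down and Fcna and Marco go up in each of the 4 S226A litters in lung and brain, while the Y130A lines go in both directions or stay level, apart from Marco in brain, where no line goes down.

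The fitted folds of the 10 genes over the 3 tissues can be put side by side for S226A. Cd163 had log2 fold changes of -5.33, -1.37 and -2.02 in liver, lung and brain, and Adgre1 of -1.37, -0.58 and -0.68. Fcna had -2.46, 1.65 and 1.71, so that its direction in liver was opposite to that in lung and brain. Marco had -0.39 and 1.01 in liver and lung, and Cd5l -1.65 and 1.96. Mrc1 had -1.02, -0.17 and -0.22. The tissues come from the same embryos, and a difference between tissues was not tested.

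In Y130A lung and brain, 0 of the 10 genes were called, and 0% of all genes were called in either tissue. With an unadjusted p below 0.05 there were 2 members in lung (Clec4f and Timd4) and 0 in brain, against 493 and 375 of all genes, and DESeq2 called 0 members in either. Timd4 had 31, 22 and 23 reads in the 3 wild-type lungs and 17, 4, 8 and 1 reads in the 4 Y130A lungs. It was the only member of the 10 without overlap between Y130A and wild-type lungs, where 4.16% of all genes had none, and its adjusted p was 1. In brain, no member was without overlap, against 4.75% of all genes.

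Clec4f in lung had 1, 3 and 0 reads in wild type and 29, 0, 7 and 13 reads in Y130A, with an adjusted p of 0.819 (exact permutation p = 0.171). The Y130A lung with 29 reads, replicate 1, was also the lung with the most liver transcripts, 1194 CPM over the 4 liver markers against at most 424 CPM in each of the other 14 lungs, and it had the most Cd5l of the Y130A lungs, 64 reads. The part of liver transcripts in these values was not tested. Fcna and Cd163, which changed in S226A lung and brain, had log2 fold changes of 0.05 ± 0.25 and 0.09 ± 0.30 (SE) in Y130A lung and -0.08 ± 0.23 and 0.21 ± 0.28 in Y130A brain.

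**Figure D4:**
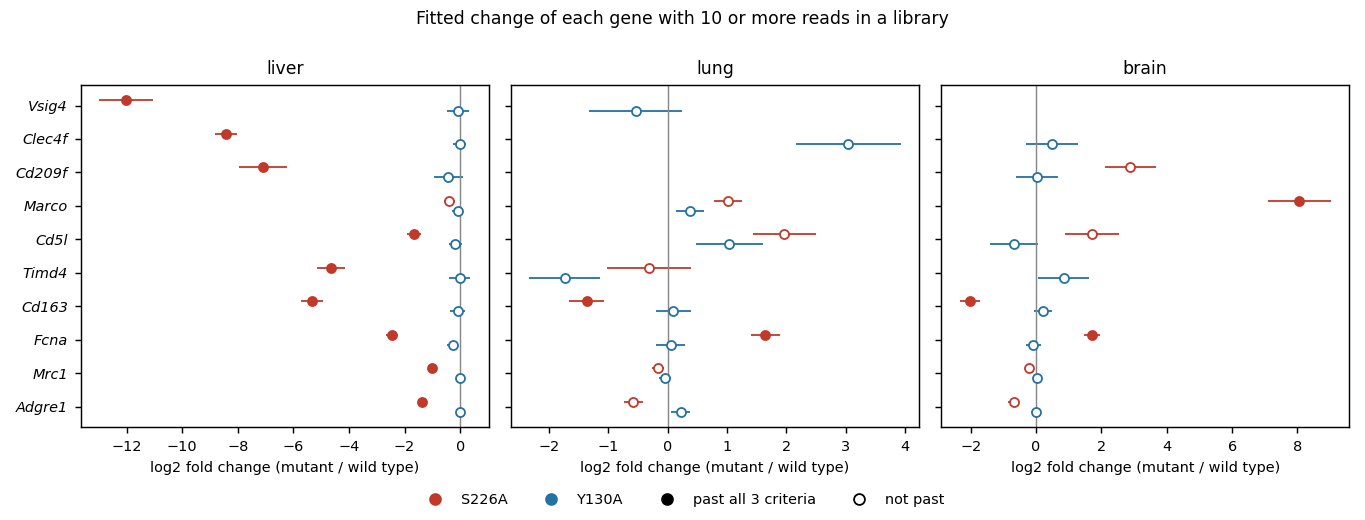
Log2 fold changes of mutant against wild-type littermates with their SE are plotted for S226A (red) and Y130A (blue) in each tissue, for genes with at least 10 reads in a library of the comparison, and filled points met all 3 criteria. In liver the red points reach from Vsig4, whose plotted value of -12.01 is set by the fit because no mutant read was found and is no estimate, to -0.39 for Marco, and in each tissue the blue points are unfilled. The genes were chosen by the red values in liver and, for Marco, by the red value in brain.

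Whether the S226A and Y130A effects differ was tested with the interaction in lung and brain. In lung, 0 of the 10 genes were called (adjusted p below 0.01 and a difference beyond 1 on the log2 scale), against 0.077% of all genes. With an unadjusted p below 0.05 there were 4 members and 1655 of the 16892 genes. The difference was 1.60 ± 0.34 (SE, S226A minus Y130A) for Fcna, with an adjusted p of 0.0234, and -1.46 ± 0.42 for Cd163, with an adjusted p of 0.161. DESeq2 called Fcna. In brain, again leaving Marco aside, 1 of 9 was called against 0.0474% of all genes. It was Cd163 with a difference of -2.23 ± 0.42 and an adjusted p of 0.00972. This lay close to the limit, since the adjusted p over 21 alternatives was 1.62e-05 to 0.0423 and 5 of the 21 called it. Fcna differed by 1.79 ± 0.35 with an adjusted p of 0.0139, so that 2 of the 9 had an adjusted p below 0.05 in brain, against 0.0829% of all genes.

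The last question was whether the 10 genes vary together among livers without the S226A allele. Over the 12 wild-type and Y130A livers, Pearson's r of log2(CPM + 1) had a median of 0.17 over the 45 pairs and was above 0 for 29 of them. Leaving out 1 liver moved the median to between 0.0496 and 0.229. Livers share the litter set, the depth that goes with it and the tissue's blood content, so that these values are a description, and the S226A livers, which stand apart, were left out. Marco, Cd5l and Fcna formed the tightest group, with r of 0.80 for Marco and Cd5l, 0.80 for Marco and Fcna and 0.70 for Cd5l and Fcna (Spearman's rho 0.66, 0.80 and 0.66). These are the genes that are highest per kilobase in liver. Over the 8 wild-type livers their r was 0.83, 0.88 and 0.79, and after centring within litter sets 0.77, 0.76 and 0.65.

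The genes that were nearly lost from S226A liver did not form such a group. Among Vsig4, Clec4f, Cd209f, Timd4 and Cd163, r over the 12 livers ran from -0.29 (Vsig4 and Cd209f) to 0.37 (Clec4f and Timd4). Clec4f had a median r of -0.00 with the other 9 genes, Cd209f of -0.15 and Cd163 of -0.00, against 0.50 for Marco and 0.47 for Fcna. Mrc1 and Adgre1 had an r of 0.45, and of 0.80 after centring. Cd209f rested on 69 to 240 reads per liver in the Y130A set and 53 to 76 in the wild-type livers of the S226A set.

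**Figure D5:**
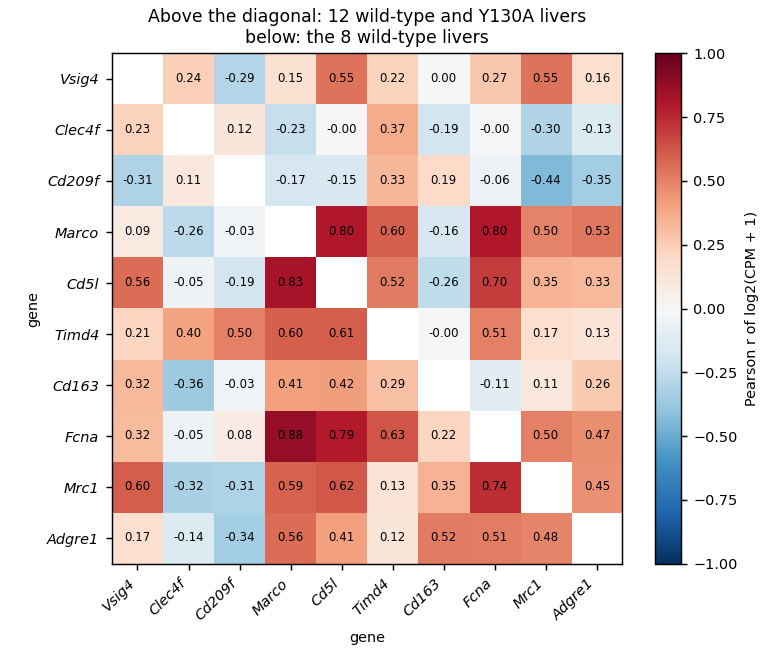
Pearson's r of log2(CPM + 1) between the 10 genes (both axes) is shown as colour and number, above the diagonal over 12 wild-type and Y130A livers and below it over the 8 wild-type livers. Marco, Cd5l and Fcna have r of 0.70 to 0.88 with each other, and the row of Clec4f is near 0 or below for most genes.

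Over all 47 libraries, the genes outside the 10 whose level was most like their mean were Cd22 (r = 0.98), Fcrla (0.98), Gbp8 (0.97), Cd72 (0.97), C1qc (0.97), Blk (0.97), C1qb (0.97), Slamf7 (0.96), Irf4 (0.95) and Il7r (0.95). The measure was Pearson's r of log2(CPM + 1) with the mean of the 10 genes, each scaled to unit variance. The libraries share tissues, and they include the 4 S226A livers, on which the members were chosen for low levels. Both favour genes that are high in liver and low in S226A liver, so that the list is a description. C1qb and C1qc are complement genes of macrophages, and Cd22, Cd72, Blk and Fcrla are known from B lymphocytes. Cd22 was at 13.9 CPM on average in the 8 wild-type livers and 2.63 CPM in the 4 S226A livers, a difference that the measure itself favours.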

How the data were processed

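RNA of whole liver, lung and brain of E18.5 embryos was sequenced in 47 libraries. The deposited values are counts, the number of reads that the authors assigned to each gene, without normalization. Reads had been trimmed (Trim Galore 0.6.5 in the submitters' notes), aligned to GRCm38.p6 and counted with STAR 2.6.0b on GENCODE genes. The strand setting is not given in the sources used here. Gene positions printed are from GENCODE M21 (GRCm38), a later release than the one used for counting, and sequences before start sites are from RefSeq (GRCm38.p6).

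Groups follow the sample titles, and replicates are separate embryos. Counts of all libraries entered 1 quasi-likelihood model (edgeR 4.0.16, R 4.3.3) with a term for each group and TMM scaling. Low genes were removed with filterByExpr at its limits of 10 and 15 reads, and 16892 genes remained, the 10 members among them. CPM are TMM-scaled. A gene was called at a Benjamini-Hochberg adjusted p below 0.01 over these genes, a log2 fold change beyond 1 and a standard error below 1, interactions without the last. Single genes were also compared with exact permutation tests on log2(CPM + 1). A fold against a group without reads is a bound from 3 reads per library. Intervals cover counting error only. No library was a copy of another (lowest chi-square per degree of freedom 4.17 within groups).

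The members and gene lists were chosen with earlier results of these data known. Besides the members, the rule for named genes took the genes of each list that were called in S226A lung, S226A brain or a Y130A tissue, the 10 genes most like the members, and Daxx; other genes were named after their values were seen. Embryos are paired by litter, and residuals of 18 of 23 pairs of littermates correlated above 0.1, against 5 of 69 other pairs. Depth was lower in the S226A set (15722147 to 26190403 reads) than in the Y130A set (36351738 to 54885020), so that rare members were measured less well there. Alternatives were RLE size factors, DESeq2 1.42.0, no filter, a model without the other groups, litter as a block, other criteria, and leaving out each library. Scripts were tested on simulated counts. 1 marker of the monocyte list is not reported here.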

Additional observations from a re-analysis of the deposited data

Results flagged for a closer look

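In 3 of 81 groups of 4 libraries tested, 1 library stood apart from the other 3 by more than Dixon's 95% limit, where chance gives about 1 in 20. These were Clec4f in Y130A brain replicate 2 (0.225 CPM), Cd5l in S226A liver replicate 3 (29.3 CPM, the lowest of its group) and Timd4 in wild-type lung replicate 1 of the S226A litters (0.797 CPM).

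The effect of the 2 alleles on Cd163 in brain differed by -2.23 on the log2 scale in the interaction test. For 3 genes, all S226A libraries lay below wild type in liver and above wild type in another tissue. The log2 fold change of Fcna was higher by 4.11 in lung and by 4.18 in brain than in liver, that of Cd5l by 3.61 in lung, and that of Cd209f by 9.98 in brain, which rested on 39 and 5 reads in brain and on 2 reads in the S226A livers (the liver value alone was -7.09, and -10.18 without S226A replicate 2). These differences between tissues were not tested, and the liver values had served to choose the genes.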

How the results depend on the processing

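No called result changed direction under an alternative, while folds near 0 or on few reads that were not called, such as Fcna in Y130A lung (-0.14 to 0.27) and Clec4f in S226A lung (-3.40 to 1.94), did. In S226A lung, the 2 members called became 0 in a model of only the libraries compared and 5 with an adjusted p below 0.05 alone, and 1 to 3 when 1 library was left out. The interaction in lung, with 0 members, gave 1 with DESeq2 and 1 with an adjusted p below 0.05 alone, and 0 to 1 when 1 library was left out. The interaction in brain, with 1 member, gave 0 without the filter, 2 with DESeq2, 2 with only the libraries compared and 2 with an adjusted p below 0.05 alone, and 0 to 1 when 1 library was left out. In S226A liver the count of 9 was 6 to 8 and in S226A brain the count of 3, Marco included, was 2 to 3 when 1 library was left out. Vsig4 in liver and Marco in brain, at 0 reads in 1 group, then often had a standard error above 1. With litter as a replicate block (paired littermates), the S226A counts were 8 for liver, 3 for lung and 3 for brain, with Vsig4 lost in liver and Marco gained in lung. The block gave 9 of 10 for wild-type liver against lung, losing Cd209f by its standard error, and Cd209f was also lost in 4 of 7 fits without 1 library. The 3 Y130A comparisons had 0 members called under each alternative run. The median correlation among livers moved to 0.316 over 8 wild-type livers and to 0.0963 after centring, and was 0.0496 to 0.229 without 1 liver. For members with few reads per library, this depth limits the detection of a fall.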

Other observations

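Spic, a transcription factor of macrophages that recycle iron from red cells, and Hmox1, which degrades haem, had lower means in S226A liver and higher means in S226A lung, the directions seen for Fcna and Cd5l. Spic was at 9.23 ± 4.28 CPM in S226A and 19.2 ± 2.25 CPM in wild-type livers, and at 0.717 ± 0.453 and 0.142 ± 0.143 CPM in lungs (SD, n = 4), with an adjusted p of 0.04998 in lung (edgeR). Hmox1 was at 115 ± 17.2 CPM in S226A and 175 ± 14.3 CPM in wild-type livers, and in brain at 7.12 ± 1.43 and 4.77 ± 1.01 CPM, with a log2 fold change of 0.58 ± 0.13 (SE) and an adjusted p of 0.0244 in brain. Neither gene met the 3 criteria in liver, lung or brain, both were picked after their values were seen, and the difference between tissues was not tested.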
